A study of Rattus norvegicus with 16 samples.

Results

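The genes described here are 33 rat genes of fatty acid oxidation and of the transcriptional programme of the receptor PPARα (gene symbol Ppara). They were chosen by name, and each was found on the array through the RefSeq accession of a probe. Of the 33, 31 were tested among 12072 genes or identifiers in all, each on the probe with the highest mean signal, and each of these 31 was well above background on all 16 arrays in both channels. The other two, the cytosolic thioesterase gene Acot1 and the pyruvate dehydrogenase kinase gene Pdk4, were not tested: their liver signal was well above background on 1 and 4 of the 16 arrays.

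RNA came from livers of male pups of the Sprague-Dawley rat strain at an age of 21 days, with 4 arrays in each of 4 groups. The RNA of 2 pups of a group was pooled on each array, and the labels do not give the litter of a pool, so the p-values below measure the spread between pools. Cy5 carried the liver RNA, and Cy3 carried a universal reference RNA from 14 rat cell lines on every array, with no dye swap.

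All dams were dosed in corn oil from gestation day 0 to postnatal day 20. Control pups (C) had dams given corn oil only and stayed with them, and cross-fostered controls (CC) were moved at birth to other dams given corn oil only. Mixture pups (M) had dams given organochlorine pesticides, polychlorinated biphenyls and methylmercury together at 1 mg per kg per day and stayed with them, and cross-fostered mixture pups (MM) were moved at birth to other dams given the mixture. Slide 1 held every C and CC array and slide 2 every M and MM array, so the mixture and the slide cannot be told apart in either comparison of mixture with control. CC and C shared a slide, as did MM and M. Array row 1 of a slide held 2 arrays of each group, and array row 2 the other 2.

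Fatty acids are carried into the mitochondrion as carnitine esters and shortened by repeated rounds of dehydrogenation, hydration, a second dehydrogenation and thiolysis, while peroxisomes shorten the very long chains. PPARα, with its partner RXR, binds direct repeats in DNA and is the main lipid-sensing activator of these enzymes in liver. The programme is active in the suckling rat, whose milk diet is rich in fat, and is the classic target of peroxisome-proliferating chemicals in rodents.

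The promoters were searched for the sequence that PPARα and RXR bind, since the members are grouped by that receptor. RefSeq promoter windows on build GRCr8, from 250 bases before to 50 after a start site, were at hand for 29 of the 33 members, all except Acadl, Acaa2, Decr1 and Vnn1. The consensus, 2 copies of AGGTCA in the same direction with 1 letter between them and read on both strands, was in 18 of 33469 windows of the table (0.0538%) and in no member. The looser form with AGGNCA in both copies was in 139 windows (0.415%) and in 1 member, Fabp1. With up to 2 letters different from the consensus, 1263 windows (3.77%) and 5 of the 29 members (17.2%) held a match. Those 5 are printed 5′ to 3′ on the gene's strand with the 13 matched letters in capitals, because they are the members whose window comes nearest to the consensus.
Fabp1, chr4:104749255-104749283, + strand: acaatcacTGACCTATGGCCTatatttga
Acadvl, chr10:55236702-55236730, - strand: gggagaagAGGTCAGTGGTCAaggcttca
Creb3l3, chr7:9273118-9273146, + strand: ctgtaagtAGGGGAGAGGTCAcacagact
Etfa, chr8:64788099-64788127, - strand: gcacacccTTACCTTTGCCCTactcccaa
Slc25a20, chr8:118243580-118243608, + strand: cttaatgtAGGTGAAAGGTCGgtgtagcc
In Fabp1 the match ran from -77 to -65 of the start site of the table and differed from the consensus by 1 letter, and it lay on the strand opposite to the gene, as did that of Etfa. The Fabp1 window lies inside the annotated gene (chr4:104744302-104753119), which begins upstream of that start site. Acadvl also differed by 1 letter, at -17 to -5. These are matches of letters and show no binding. The search with letters allowed to differ was added after the data were seen.

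In liver, 30 of the 31 members tested had a log2 ratio of liver over reference above 0 on all 16 arrays, against 56.3% of all genes tested with a mean above 0 in C. The exception was Cd36, the fatty acid translocase, at -1.19 to -0.16. Fabp1, the liver fatty acid binding protein, was at 9.41 to 9.56 on the C arrays. The labelled tissue was matched by its markers: 12 of 12 hepatocyte markers were measured, and their summed Cy5 intensity was 1136416 to 1250301 over the 16 arrays. Scaling by quantiles limits how far a sum of such bright probes can differ, so it cannot compare hepatocyte content between arrays. Array CC 1 stood apart for Fabp1, at 7.97 against 9.53 to 9.74 on the other 3 CC arrays. Its Cy5 intensity there after scaling by quantiles, 130323, was within the 96150 to 139732 of all arrays. Before correction its Cy5 median there, 161039, was the highest of the 16 arrays, against 113278 to 142895.5 on the other CC arrays. The reference signal of its 2 spots had a median of 1622.5 before correction, against 394 to 412.5 on the other CC arrays. Fabp1 was not alone in this channel. For the 12 hepatocyte markers the Cy3 difference of CC against C ran from 0.02 (Pck1) to 0.50 (Serpina1), and limma called no gene. Their median difference was -0.24 in the ratio and 0.03 in Cy5 alone. The share of CC 1 in these values was not tested.

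Other cell types moved with some arrays. The summed Cy5 intensity of the 6 skeletal muscle markers tested (of 15 listed) was 12855 on CC 1 and 11624 on CC 2, against 678 to 826 on the other 14 arrays. That of the 4 exocrine pancreas markers tested (of 12) was highest on CC 2, at 9110, then CC 1, at 3276, and MM 1, at 2770. The defining muscle genes Ckm, Acta1 and Myh4 and the pancreas genes Prss1 and Pnlip were not tested. In MM against CC, 4 of 6 muscle markers and 4 of 12 Kupffer cell and leukocyte markers tested were lower in the ratio by limma, against 12.3% of all genes, and none of them was called in Cy5 alone. Of 9 stellate cell and cholangiocyte markers 2, Epcam and Reln, were higher in both mixture comparisons, and neither was called in Cy5 alone. The part of these cells in the members' values was not tested, and in pooled liver fewer cells of a type cannot be told apart from less RNA per cell. The counts in MM against CC, and the values of named genes whose call changed, are also given without CC 1 and CC 2.

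**Figure D1:**
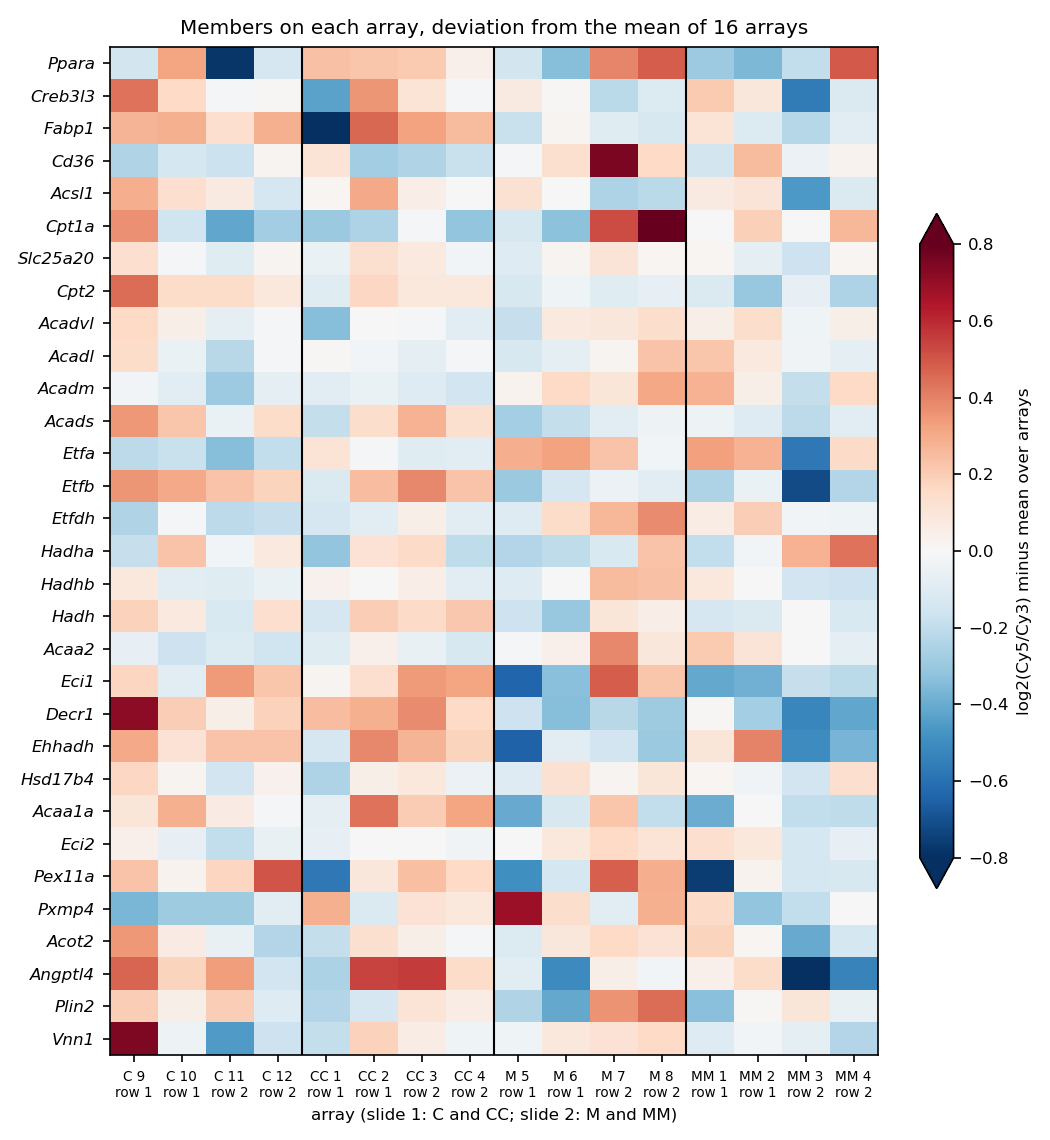
The colour gives the log2 ratio of each of the 31 members on each of 16 arrays minus that member's mean over the arrays, with groups separated by lines and the array row under each array. Fabp1 on CC 1 (7.97) and Decr1 on C 9 (3.72) lie far from the same gene on the other arrays of their group, and the colours saturate at 0.8 either way.

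M against C addresses the mixture in pups that stayed with the dams that bore them. Of the 31 members, 8 changed in the log2 ratio (25.8%), against 20.5% of all genes tested, so the share of members was near the background. The 3 higher in M were Etfa, Etfdh and Pxmp4 (8.19% of all genes were higher), and the 5 lower were Cpt2, Acads, Etfb, Decr1 and Ehhadh (12.3% of all genes were lower). The members' median difference was 0.00 and that of all genes -0.05. In Cy5 alone, the liver channel, no member was called at an adjusted p below 0.05 by limma, against 2.23% of all genes. At an unadjusted p below 0.05 there were 11 members (35.5%) in Cy5, against 15.9% of all genes. In Cy3 alone, which holds no pup RNA, 19 of 31 members (61.3%) differed between the slides, against 66.2% of all genes. Of the 19, 8 were higher on slide 2 (37.9% of all genes) and 11 lower (28.4%).

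In MM against CC, 3 of 31 members changed, all lower in MM (9.68%), against 20.1% of all genes tested. They were Etfb, Decr1 and Acaa1a, and of all genes 12.3% were lower and 7.83% higher. The members' median difference was -0.08 against -0.06 for all genes. In Cy5 alone limma called none, against 2.58% of all genes. At an unadjusted p below 0.05 there were 5 members (16.1%) in Cy5, near the 14.6% of all genes, and in Cy3 alone 19 of 31 members differed (61.3%), against 66.2% of all genes. Of these, 8 were higher (37.8% of all genes) and 11 lower (28.4%). Etfb and Decr1 were lower in both comparisons, which share no arrays but lie on the same pair of slides. Without array C 9 limma called 1 member in M against C, Decr1 (-0.40 ± 0.11, adjusted p = 0.0217). The differences of the other 7 kept their sign there, with Etfa at 0.44, Etfdh at 0.31, Pxmp4 at 0.48 (adjusted p = 0.0518), Etfb at -0.38, Ehhadh at -0.48, Acads at -0.26 and Cpt2 at -0.20. Without CC 1 and CC 2, M against C called 8 members with Fabp1 in place of Etfa, and MM against CC called 3, Decr1, Etfb and Fabp1. Without CC 1 alone, MM against CC called 7.

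The split between directions moved with the scaling. In M against C it was 3 higher and 5 lower as fitted, 6 and 5 by the log ratio of the scanner software, 5 and 3 with the authors' deposited log2 ratios, and 1 and 4 with median centring. In MM against CC it was 0 and 3 as fitted, and 3 and 5, 1 and 2, and 0 and 10 in the same order. Median centring moved the median of all genes from -0.051 to -0.11 in M against C, and from -0.059 to -0.193 for the cross-fostered pair.

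**Figure D2:**
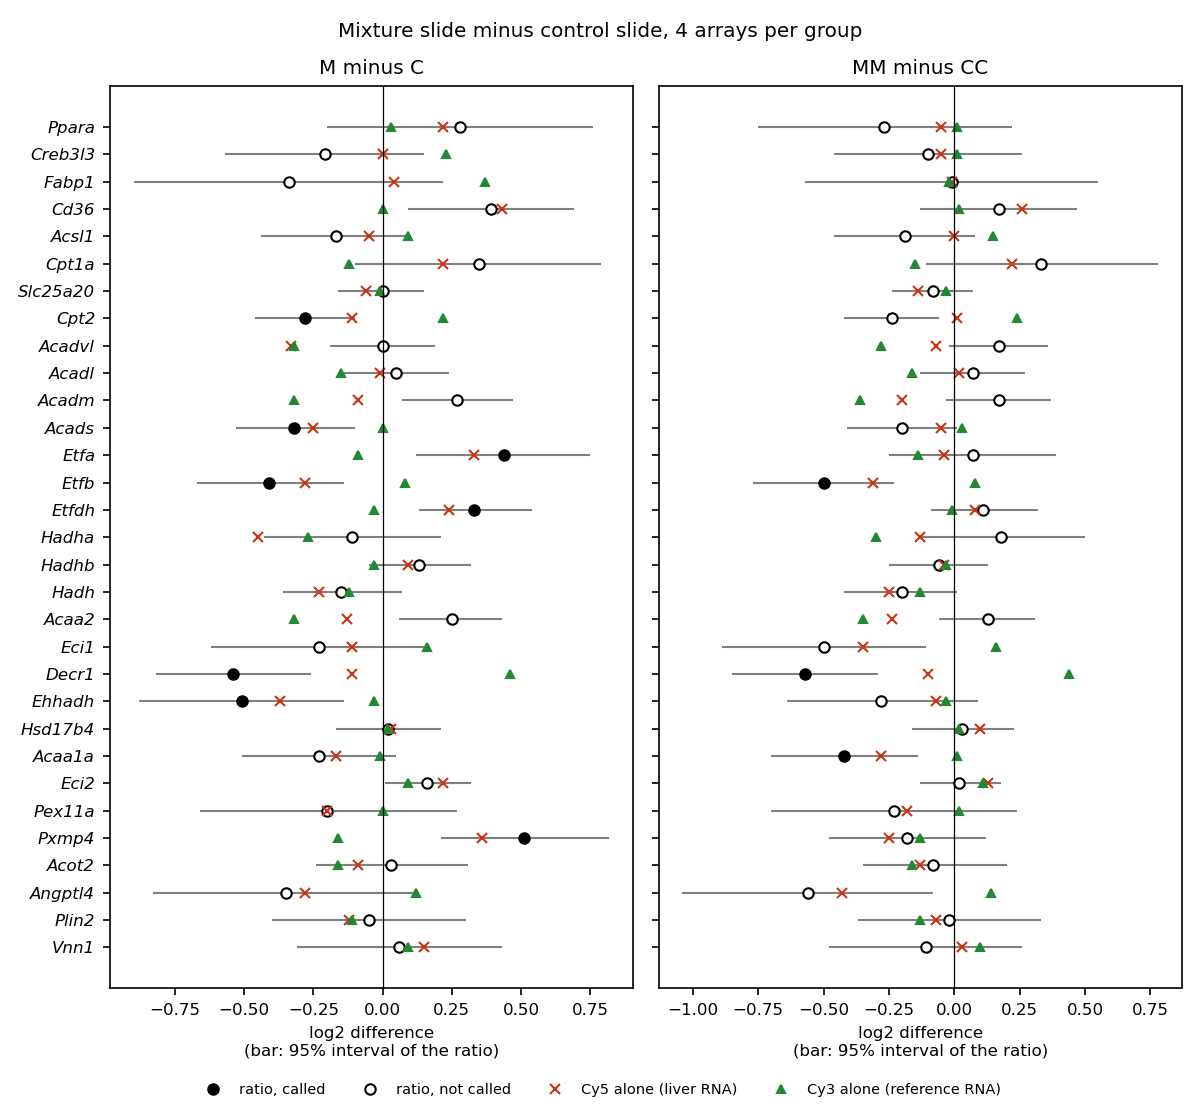
Points give the log2 difference of each member in the ratio (circles, filled where the adjusted p is below 0.05, with the 95% interval), in Cy5 alone (crosses) and in Cy3 alone (triangles), for M minus C and MM minus CC, 4 arrays per group. For Decr1 the triangle lies at 0.46 and 0.44 and the cross at -0.11 and -0.10.

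The receptor gene Ppara (chr7:118712261-118780723, GRCr8) had log2 ratios of 1.36, 1.82, 0.73 and 1.37 on C 9 to C 12, and 1.74, 1.73, 1.72 and 1.55 on CC 1 to CC 4. On slide 2 it was at 1.36, 1.17, 1.90 and 1.99 on M 5 to M 8, and at 1.22, 1.15, 1.31 and 2.0 on MM 1 to MM 4. The groups overlapped in every comparison, and the 3 highest values of slide 2 were M 7, M 8 and MM 4, all in array row 2. Its differences did not pass the test: 0.28 ± 0.23 (SE; limma adjusted p = 0.418) in M against C, and -0.27 ± 0.23 (adjusted p = 0.441) in MM against CC, with 95% intervals of -0.20 to 0.76 and -0.75 to 0.22. Its Cy5 signal before correction was 103.75 to 193 over a local background of 64 to 73, which limits its precision. Creb3l3, the liver transcription factor that works with PPARα in fasting, was at -0.21 ± 0.17 and -0.10 ± 0.17, with no call.

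Among the genes of binding, uptake and activation, no member was called. Fabp1 was at -0.34 ± 0.26 in M against C, and its difference between MM and CC was -0.01 ± 0.26. Without array CC 1 it was lower in both, at -0.34 ± 0.079 (adjusted p = 0.00676) and -0.42 ± 0.085 (adjusted p = 0.00352). In Cy5 alone, scaled by quantiles between arrays, its differences with all arrays were 0.04 and -0.01. That scaling limits how far so bright a probe can differ, so these values cannot show whether the liver signal fell. Before correction and scaling its Cy5 medians were 115919 to 130923 on C and 87084.5 to 139223 on M. They were 113278 to 161039 on CC and 94088.5 to 118743.5 on MM. Cd36 was at 0.39 ± 0.14 in M against C (adjusted p = 0.0638) and 0.43 in Cy5 alone (adjusted p = 0.155), with M 7 far above the other arrays at -0.16, against -0.92 to -0.75 on the other M arrays. Acsl1, the long-chain acyl-CoA synthetase of liver, was at -0.17 and -0.19, with no call.

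Cpt1a (chr1:209993881-210056329), the rate-limiting carnitine palmitoyltransferase of the outer mitochondrial membrane, was at 2.40, 1.88, 1.62 and 1.76 on C 9 to C 12, and at 1.74, 1.79, 2.03 and 1.72 on CC 1 to CC 4. It was at 1.91, 1.71, 2.56 and 2.86 on M 5 to M 8, and at 2.04, 2.23, 2.04 and 2.30 on MM 1 to MM 4. All 4 MM arrays lay above all 4 CC arrays, from 2.04 against a highest CC array of 2.03, while M and C overlapped. In Cy5 alone MM (log2 intensity 8.56 to 8.83) and CC (8.34 to 8.71) overlapped. Leaving out CC 1 and CC 2 could not change the order in the ratio, since it only takes CC arrays away. The difference was 0.35 ± 0.21 in M against C (adjusted p = 0.267) and 0.33 ± 0.21 in MM against CC (adjusted p = 0.288). Without CC 1 and CC 2 it was 0.28 ± 0.27 in MM against CC (limma adjusted p = 0.554). Within array row 1 M minus C was -0.33 and within row 2 it was 1.02, so the pooled value covers rows that differ in sign.

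Of the other carnitine genes, Slc25a20, the carnitine-acylcarnitine carrier, was at 0.00 and -0.08, and its within-group SD of 0.0883 was among the smallest of the members. Cpt2, the inner-membrane transferase that remakes the acyl-CoA, was lower in M, at -0.28 ± 0.085 (adjusted p = 0.0261). Its Cy5 difference was -0.11, while Cy3 was brighter on slide 2, at 0.22. Between MM and CC the ratio differed by -0.24 ± 0.085 (adjusted p = 0.0556) and Cy5 by 0.01.

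Of the 7 acyl-CoA dehydrogenase and electron transfer genes, 2 were higher and 2 lower in M, against 8.19% and 12.3% of all genes, a count too small to read against those shares. Acads, the short-chain dehydrogenase, fell by 0.32 ± 0.10 (adjusted p = 0.0349), at -0.25 in Cy5 alone and 0.00 in Cy3. Etfa and Etfb encode the alpha and beta subunits of one protein, the electron transfer flavoprotein, which takes electrons from the dehydrogenases, and Etfdh encodes the membrane oxidoreductase that passes them to ubiquinone. In the ratio Etfa was 1.78 ± 0.071 in C and 2.22 ± 0.15 in M (SD, n = 4), a difference of 0.44 ± 0.15 (SE; limma adjusted p = 0.0495). Etfb was 3.31 ± 0.079 in C and 2.90 ± 0.11 in M, a difference of -0.41 ± 0.13 (adjusted p = 0.0317). The 4 arrays of M and the 4 of C did not overlap for either subunit, in the ratio or in Cy5 alone, where the differences were 0.33 and -0.28 and neither was called.

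Etfb was also lower in MM than in CC, at -0.50 ± 0.13 (adjusted p = 0.011), with a Cy5 difference of -0.31. Etfa was at 0.07 ± 0.15 there, with MM 3 at 1.44 against 2.16 to 2.34 on the other 3 MM arrays. MM 3 was also the lowest MM array for Etfb, at 2.33 against 2.80 to 2.99. Etfdh was higher in M by 0.33 ± 0.095 (adjusted p = 0.0203), at 0.24 in Cy5 alone and -0.03 in Cy3, and was at 0.11 ± 0.095 in MM against CC.

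For the remaining dehydrogenases the ratio and the liver channel differed. Acadm, the medium-chain enzyme, was at 0.27 ± 0.095 in M against C (adjusted p = 0.0564), with the 4 M arrays all above the 4 C arrays. Its Cy5 difference was -0.09 and its Cy3 difference -0.32. Acadvl, the very-long-chain enzyme, was at 0.00 ± 0.09 in the ratio, -0.33 in Cy5 alone (adjusted p = 0.0906) and -0.32 in Cy3. Acadl, the long-chain enzyme, was at 0.05 and 0.07 in the ratio in the 2 comparisons.

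**Figure D3:**
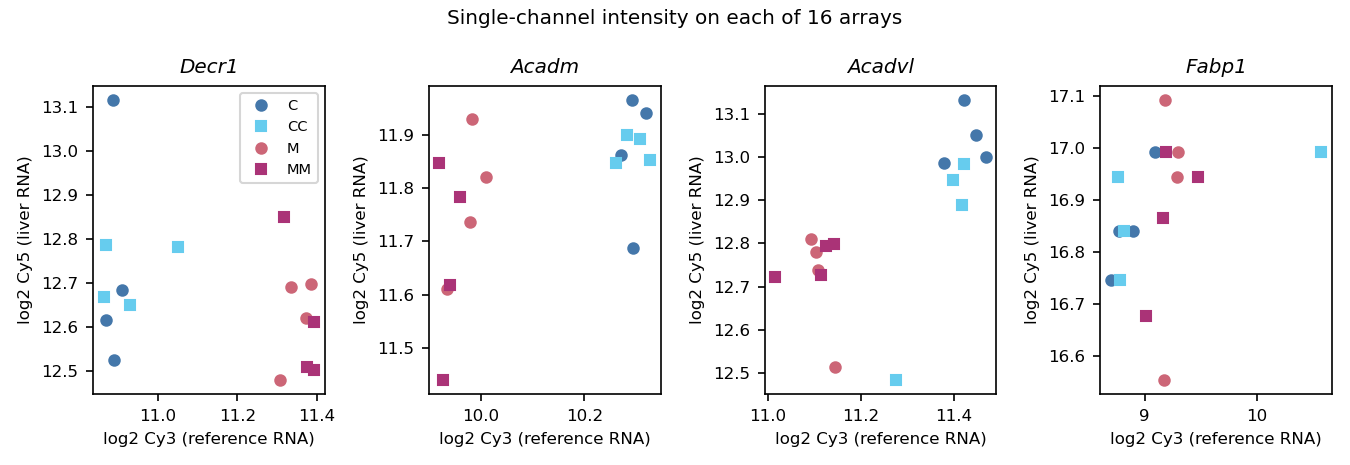
Each point is an array, with log2 Cy3 intensity (reference RNA) across and log2 Cy5 intensity (liver RNA) up, for Decr1, Acadm, Acadvl and Fabp1. The slides separate along the Cy3 axis for Decr1, Acadm and Acadvl, and CC 1 lies alone at high Cy3 for Fabp1.

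Of the 6 mitochondrial genes of the later steps, 1 was called in each comparison. Decr1 (chr5:34208195-34236074), the 2,4-dienoyl-CoA reductase needed for polyunsaturated chains, had log2 ratios of 3.72, 3.20, 3.05 and 3.19 on C 9 to C 12 and 2.84, 2.66, 2.78 and 2.72 on M 5 to M 8. It was at 3.25, 3.29, 3.38 and 3.16 on CC 1 to CC 4 and at 3.01, 2.73, 2.48 and 2.59 on MM 1 to MM 4. No array of slide 2 reached any array of slide 1. The differences were -0.54 ± 0.13 (0.688-fold; adjusted p = 0.00831) and -0.57 ± 0.13 (0.674-fold; adjusted p = 0.00614). The liver channel gave -0.11 (95% interval -0.35 to 0.12) and -0.10 (-0.34 to 0.13), with no call. The reference signal of the same probe was higher on slide 2, at 0.46 and 0.44 (Cy3 adjusted p = 1.58e-08 and 2.63e-08), so most of the difference in the ratio lay in the reference channel.

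Eci1, the mitochondrial enoyl-CoA isomerase, was at -0.23 ± 0.18 in M against C and at -0.50 ± 0.18 in MM against CC (adjusted p = 0.0641), where all 4 MM arrays lay below all 4 CC arrays in the ratio and in Cy5 alone. Acaa2, the mitochondrial thiolase, was at 0.25 ± 0.087 (adjusted p = 0.0533) in M, but at -0.13 in Cy5 alone and -0.32 in Cy3. Hadh, the short-chain hydroxyacyl-CoA dehydrogenase, was at -0.15 and -0.20 with no call, and its 4 MM arrays lay below the 4 CC arrays in Cy5 alone, at -0.25.

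Hadha and Hadhb encode the alpha and beta subunits of the mitochondrial trifunctional protein. They lie head to head on chromosome 6, and the 243 bases between the annotated genes, printed on the + strand with Hadhb on the left and CpG dinucleotides in capitals, are shown because this stretch is all that separates the pair.
Hadhb to Hadha, chr6:31907558-31907800, + strand: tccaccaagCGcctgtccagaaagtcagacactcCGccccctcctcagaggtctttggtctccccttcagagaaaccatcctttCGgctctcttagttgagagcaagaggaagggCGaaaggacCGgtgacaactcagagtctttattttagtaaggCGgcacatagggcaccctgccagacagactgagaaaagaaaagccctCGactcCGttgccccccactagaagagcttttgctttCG
The stretch holds 9 CpG and 53.5% G and C, against a median of 51.7% over all windows of the table. Neither gene was called. Hadhb was at 0.13 ± 0.088 and -0.06 ± 0.088, and the probe used for Hadha at -0.11 ± 0.15 and 0.18 ± 0.15. A second Hadha probe gave 0.13 and -0.01, so the 2 probes of this gene differed in direction. The probe used had 1 spot per array and the second had 2. The ratio of Hadhb had Pearson's r of -0.25 on slide 1 and -0.30 on slide 2 with the probe used for Hadha (n = 8 arrays each; exact permutation p = 0.547 and 0.452), and Spearman's rho of -0.10 (p = 0.825) and -0.32 (p = 0.433). With the second probe r was 0.49 and 0.57 (exact permutation p = 0.209 and 0.131) and rho 0.46 (p = 0.258) and 0.56 (p = 0.154). Without the 2 arrays farthest from the Hadha median, r became -0.40 and 0.59 for the first probe and -0.03 and 0.10 for the second. None of these passed adjustment over the 10 pairings computed, where the lowest adjusted p for r was 0.161.

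In the peroxisome, Ehhadh, the bifunctional enzyme and a classic PPARα target, was lower in M at -0.51 ± 0.17 (adjusted p = 0.0467), with all 4 M arrays (2.38 to 2.94) below all 4 C arrays (3.14 to 3.33). In Cy5 alone it was at -0.37 (adjusted p = 0.158) and again did not overlap, and its reference signal was at -0.03. That reference signal was dim, with a mean log2 Cy3 of 6.397 against 6.083 for the untested Acot1, so it could show little shift between slides. In MM against CC it was at -0.28 ± 0.17, with MM from 2.52 to 3.42 and CC from 2.89 to 3.41, and no call. Acaa1a, the peroxisomal thiolase, was lower in MM at -0.42 ± 0.13 (adjusted p = 0.0339), at -0.28 in Cy5 alone and 0.01 in Cy3, and was at -0.23 ± 0.13 in M. Without CC 1 and CC 2 it was at -0.46 ± 0.15 and missed the threshold (adjusted p = 0.0569). A second Acaa1a probe gave -0.22 in MM against CC.

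Pxmp4, a peroxisomal membrane protein, was at 1.07, 1.15, 1.15 and 1.35 on C 9 to C 12 and 2.12, 1.58, 1.35 and 1.72 on M 5 to M 8, with M 7 and C 12 both at 1.35 to 2 decimals and M 7 the higher. It was higher in M by 0.51 ± 0.14 (adjusted p = 0.0181), at 0.36 in Cy5 alone and -0.16 in Cy3. Its value for MM against CC was -0.18 ± 0.14. The difference between the 2 comparisons was -0.70 ± 0.20, with an unadjusted p of 0.0033 and an adjusted p of 1, so it did not pass. Hsd17b4, the D-bifunctional enzyme, was at 0.02 and 0.03, Eci2, the peroxisomal isomerase, at 0.16 and 0.02, and Pex11a, which acts in peroxisome division, at -0.20 and -0.23, with no call.

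Of the remaining members, Acot2, the mitochondrial thioesterase, was at 0.03 and -0.08. Angptl4, a secreted inhibitor of lipoprotein lipase, was at -0.35 ± 0.23 and -0.56 ± 0.23 (adjusted p = 0.301 and 0.0943), and its MM arrays ranged from 2.81 to 3.86. Plin2, the coat protein of lipid droplets, was at -0.05 and -0.02, and Vnn1, a pantetheinase, at 0.06 and -0.11. None of these was called.

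**Figure D4:**
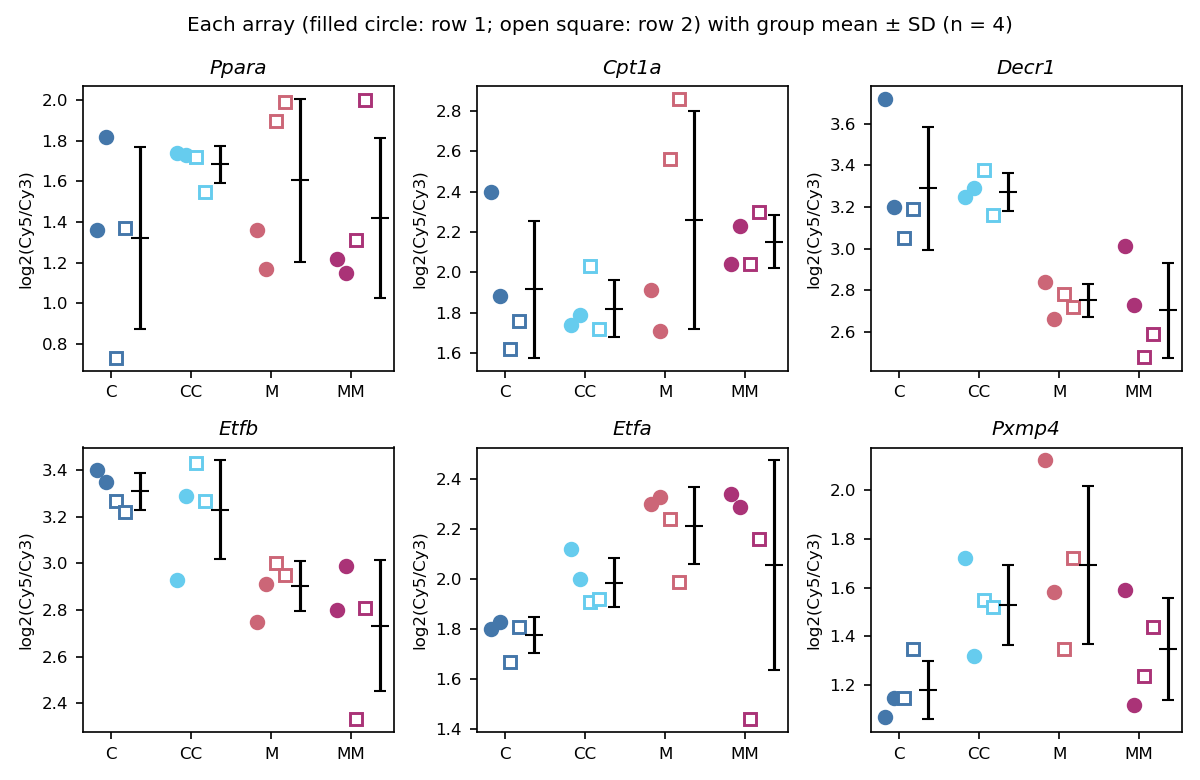
Log2 ratios of 6 members on each array (filled circles: array row 1; open squares: array row 2), with the mean and SD of each group of 4. Decr1 lies lower on all M and MM arrays than on all C and CC arrays, and Cpt1a on the M arrays splits by row, at 1.71 and 1.91 against 2.56 and 2.86.

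Without regard to the test, the arrays of M and C lay fully apart in the ratio for 9 members, 4 higher and 5 lower, against 25.1% of all genes, and in Cy5 alone for 2 higher and 3 lower, against 10.7%. In MM and CC they lay apart for 1 higher (Cpt1a) and 2 lower (Eci1 and Decr1), against 22% of all genes. In Cy5 alone these groups lay apart for 1 higher (Eci2) and 2 lower (Eci1 and Hadh), against 8.71%. Cpt1a and Decr1 overlapped in that channel. For 19 of 31 members in M against C and 22 for the cross-fostered groups, the whole 95% interval of the difference was smaller than a 1.5-fold change, and for 31 and 30 it was smaller than 2-fold. The interval was smaller than 2-fold for 97% of all genes in both comparisons. Changes of the ratio larger than 2-fold were thus outside the interval of nearly every member, as of nearly every gene. These intervals are of the slide and the mixture together.

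For cross-fostering without the mixture (CC against C) and with it (MM against M), limma called no member and no gene at all (0% of all genes). At an unadjusted p below 0.05 there was 1 member in each (3.23%, against 2.79% and 2.28% of all genes), Pxmp4, at 0.35 ± 0.14 in CC against C and -0.34 ± 0.14 in MM against M, and in Cy5 alone there were 2 and 0 members, against 2.46% and 2.19% of all genes. The member differences ran from -0.31 to 0.36 and from -0.34 to 0.21, and for 27 and 26 of the 31 members the whole 95% interval was smaller than a 1.5-fold change. Ppara was at 0.36 ± 0.23 and -0.18 ± 0.23, and Cpt1a at -0.10 ± 0.21 and -0.11 ± 0.21. The CC and C arrays lay fully apart for 1 member, Etfa (0.21), against 2.2% of all genes, and the MM and M arrays for none, against 1.28%. In Cy5 alone the CC and C arrays lay apart for 3 members, Etfa higher (0.19) and Cpt2 and Acadvl lower (-0.21 and -0.22), against 1.91% of all genes, and none of them was called. Without CC 1 and CC 2 limma again called no member in CC against C, with Ppara at 0.31 ± 0.30, Cpt1a at -0.04 ± 0.27 and Pxmp4 at 0.36 ± 0.17. The interaction called no member (0% of all genes), with 1 (3.23%) at an unadjusted p below 0.05, against 2.88% of all genes.

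The array rows asked how far the members followed the position of an array on its slide. On slide 1 no member differed between rows by limma (0.00828% of all genes), with 0 at an unadjusted p below 0.05 in the ratio, against 17% of all genes. In Cy5 alone no member was called there (0.058% of all genes) and 1 (3.23%) had an unadjusted p below 0.05, against 17.5% of all genes. On slide 2, 4 of 31 members differed (12.9%), against 15.5% of all genes, and 9 (29%) had an unadjusted p below 0.05, against 31.8% of all genes. In row 2, 3 were higher (7.92% of all genes) and 1 lower (7.59%). Ppara was higher in row 2 by 0.58 ± 0.17 (adjusted p = 0.0327), Eci1 by 0.52 ± 0.12 (adjusted p = 0.0147) and Plin2 by 0.45 ± 0.12 (adjusted p = 0.0261), and Acsl1 was lower at -0.33 ± 0.087 (adjusted p = 0.023). Cpt1a was at 0.47 ± 0.18 and did not pass (adjusted p = 0.0925).

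In Cy5 alone 7 members differed between the rows of slide 2 (22.6%), against 16.6% of all genes: these 4, with Pex11a at 0.51, Hadha at 0.45 and Etfa at -0.37. Of the 7, 5 were higher in row 2 (9.18% of all genes) and 2 lower (7.41%). In Cy3 alone none did, against 0.0331% of all genes, and with 0 at an unadjusted p below 0.05, against 8.48% of all genes. By the log ratio of the scanner software no member and no gene (0%) was called. Leaving out single arrays of slide 2 left between 1 and 6 members. Eci1 was called without any single array, and without MM 1 or M 5 it was the only one. Between Ppara and Cpt1a, r was 0.80 on slide 2 (exact permutation p = 0.0161, adjusted p = 0.161 over 10 pairings; rho = 0.61, p = 0.116; n = 8) and 0.18 on slide 1 (exact permutation p = 0.618; rho = 0.21, p = 0.619), and neither passed adjustment. Without the 2 arrays farthest from the Ppara median, r was 0.75 and 0.43. A row holds 4 arrays, too few for a value within rows, and the row's part in the relation was not tested. For Etfa and Etfb, r was -0.57 on slide 1 and 0.80 on slide 2 (exact permutation p = 0.143 and 0.0853), and rho was -0.25 (p = 0.549) and 0.02 (p = 0.977). Without the 2 arrays farthest from the Etfa median, r was -0.10 and -0.04, so the value on slide 2 rested on those arrays. These pairings were chosen after the values were seen.

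**Figure D5:**
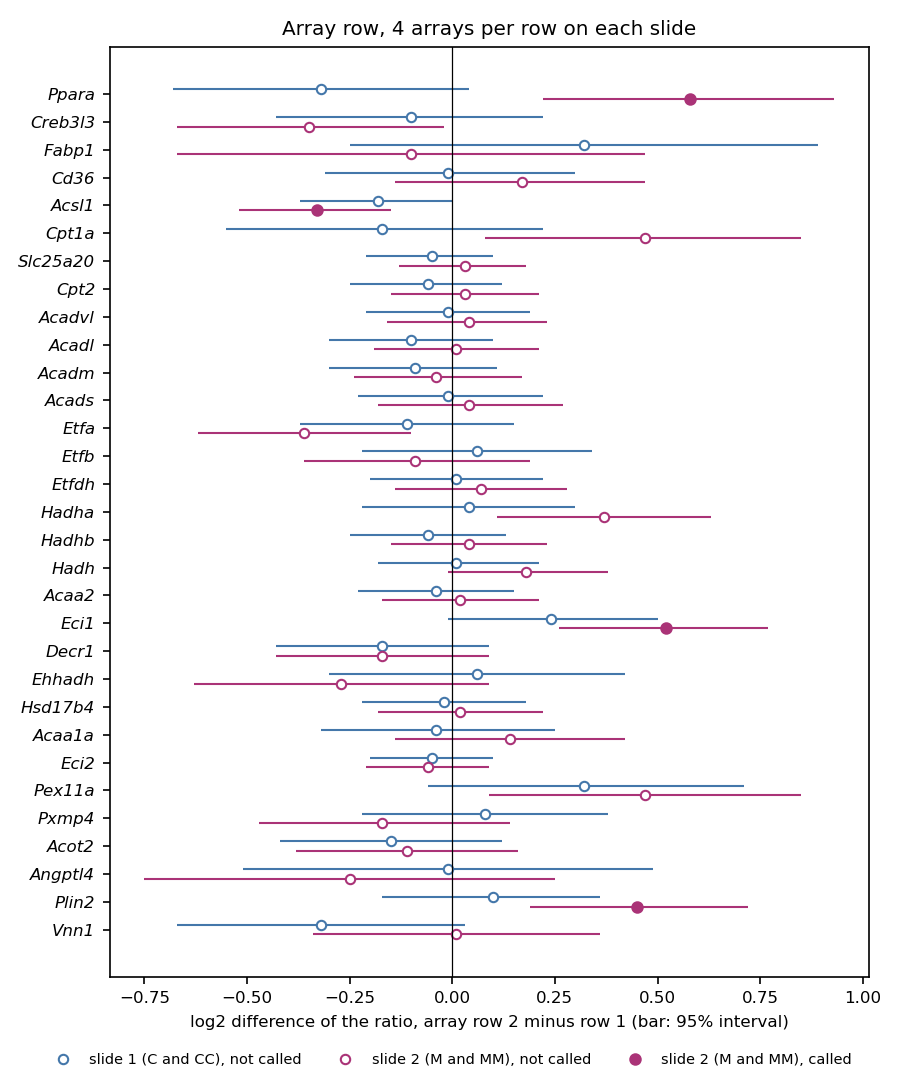
Points give the log2 difference of the ratio between array row 2 and array row 1 for each member, with 95% intervals, on slide 1 (blue) and slide 2 (purple), filled where the adjusted p is below 0.05. The filled points are Ppara (0.58), Eci1 (0.52), Plin2 (0.45) and Acsl1 (-0.33), all on slide 2.

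Few of the other genes of the pathway were called in the liver channel too. Their counts in the ratio stand against 8.19% of all genes higher and 12.3% lower in M, and 7.83% and 12.3% in MM. Of 11 partners and cofactors of the receptor tested, 1 fell in M and 2 in MM, which is near those shares. Esrra, the orphan receptor that drives mitochondrial genes, was one of them in both, at -0.27 ± 0.075 (adjusted p = 0.0195) and -0.23 ± 0.075 (adjusted p = 0.0429), and it fell in Cy5 alone too, at -0.38 and -0.34 (adjusted p = 0.0103 and 0.0188). Its Cy5 intensity was 734 to 984 on the C arrays, 791 to 821 on CC, 628 to 672 on M and 616 to 677 on MM. The slides did not overlap in that channel. Its reference signal was lower on slide 2 as well, at -0.10 and -0.13. Without CC 1 and CC 2 the value in MM was -0.29 ± 0.091 and missed the threshold (adjusted p = 0.0525). Ppard, the delta receptor, was lower in MM at -0.32 ± 0.10 (adjusted p = 0.042) but at -0.13 in Cy5 alone, and without CC 1 and CC 2 it was at -0.31 (adjusted p = 0.144).

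Of 20 other genes of uptake, activation and carnitine, 1 rose in M (Acsl4, at 0.27 ± 0.08, adjusted p = 0.0244, and 0.08 in Cy5 alone) and 2 fell in MM. Crat, the carnitine acetyltransferase, was lower in MM at -0.77 ± 0.14 (adjusted p = 0.00136) and in Cy5 alone at -0.83 (adjusted p = 0.00248). Its Cy5 intensity was 1455 to 2122 on the CC arrays and 843 to 1122 on the MM arrays, with no overlap. Without CC 1 and CC 2 it was at -0.66 ± 0.15 (adjusted p = 0.0137). Fabp3, the heart and muscle fatty acid binding protein, was at -1.25 ± 0.38 (adjusted p = 0.0302), but without CC 1 and CC 2, the arrays highest in muscle markers, it was at -0.22 ± 0.13 (adjusted p = 0.327).

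Of 15 other mitochondrial genes, 4 rose and 1 fell in M (8.19% and 12.3% of all genes), and 3 rose and 1 fell in MM (7.83% and 12.3%). Acad9, a dehydrogenase that also assembles respiratory complex I, rose in both, at 0.23 ± 0.065 and 0.23 ± 0.065 (adjusted p = 0.0224 and 0.0227), and in Cy5 alone at 0.31 and 0.34 (adjusted p = 0.00946 and 0.00487). Its Cy5 intensity was 752 to 815 over the 8 arrays of slide 1 and 899 to 1048 over those of slide 2. Its reference signal was also higher on slide 2, at 0.11 and 0.10. Without CC 1 and CC 2 it was at 0.25 ± 0.083 in MM (adjusted p = 0.0673). Pccb, the beta subunit of propionyl-CoA carboxylase, rose at 0.43 ± 0.08 and 0.30 ± 0.08, and Echs1, the short-chain enoyl-CoA hydratase, at 0.37 ± 0.11 and 0.46 ± 0.11, with Cy5 differences of 0.16, 0.07, -0.05 and 0.02 in that order. Pcca, the alpha subunit of the same carboxylase, rose in M at 0.30 ± 0.082, with 0.10 in Cy5 alone. Pdk2, a pyruvate dehydrogenase kinase, fell in M at -0.31 ± 0.079, with -0.30 in Cy5 alone, and Ucp2, a mitochondrial carrier, fell in MM at -0.35 ± 0.086, with -0.05 in Cy5 alone. Pccb kept its call in MM without CC 1 and CC 2 (0.35 ± 0.10, adjusted p = 0.0388), and Echs1 (0.29, adjusted p = 0.0807) and Ucp2 (-0.29, adjusted p = 0.0745) did not.

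Of 37 other peroxisomal genes, 1 rose and 3 fell in M (8.19% and 12.3% of all genes) and 7 fell in MM (12.3% of all genes), and none was called in Cy5 alone by limma. Acot8, a peroxisomal thioesterase, fell in both at -0.34 ± 0.09, with -0.17 and -0.16 in Cy5 alone. Amacr, the racemase of branched chains, fell in M at -0.50 ± 0.13 while its Cy5 difference was 0.05 and its Cy3 difference 0.58. Pex6, Pex2 and Pex3 act in peroxisome assembly. Pex6 rose in M at 0.42 ± 0.089, and Pex2 and Pex3 fell in MM at -0.38 ± 0.089 and -0.30 ± 0.085, with Cy5 differences of 0.03, -0.04 and -0.06. With CC 1 and CC 2 left out, Pex2, Pex3 and Acot8 in MM were at -0.30, -0.24 and -0.35 and missed the threshold (adjusted p = 0.0735, 0.162 and 0.0599).

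Of 10 other lipid droplet and lipase genes, none was called in M against C by limma. A last list of 16 genes tested held ketone body genes, Fgf21, microsomal hydroxylases and some others, among them Retsat and Vnn3. Of the 16, 1 rose (Retsat, at 1.17 ± 0.40, adjusted p = 0.0493) and 1 fell (Vnn3, at -0.44 ± 0.13, adjusted p = 0.0216) in M. No ketone body or hydroxylase gene was called in M. In MM 1 fell, the fatty acid hydroxylase gene Cyp4a1, at -0.74 ± 0.22 (adjusted p = 0.0281). In Cy5 alone limma called neither Retsat (0.89, adjusted p = 0.266) nor Vnn3 (-0.49, adjusted p = 0.0831) in M. Cyp4a1 was at -0.57 in Cy5 alone (adjusted p = 0.0722), and without CC 1 and CC 2 its ratio was at -0.86 ± 0.28 (adjusted p = 0.0613). The hormone gene Fgf21 was at -0.18 ± 0.19 and -0.03 ± 0.19, with no call.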

How the data were processed

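Liver RNA (Cy5) and reference RNA (Cy3) of 16 arrays were used. The deposited scanner files hold median spot and background intensity, made per the file headers with Agilent Feature Extraction 11.0.1.1, and a log10 ratio of the same software, background-subtracted and dye-normalized. A series-wide deposited table gives log2 ratios whose normalization is not given in the sources used here. Its direction and scale followed the ratios computed here (r = 0.996 to 0.997 per array, medians -0.049 to -0.037), and it served as an alternative.

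Background was corrected by normexp (offset 50), outlier spots were left out, log2 ratios were normalized by loess within arrays, and single channels by quantiles between arrays. Probes with Cy5 well above background on at least 3 of 4 arrays of a group were kept (13262 of 30367). Probes were named by RefSeq accession through a GRCr8 table, and no strand or coordinate of the probes was used. One model with the 4 group means was fitted over the 16 arrays in limma 3.58.1 (R 4.3.3), two-sided, with Benjamini-Hochberg adjustment over 12072 genes. A difference was called at an adjusted p below 0.05. Errors written after a difference are standard errors. Channels alone used the same fit, and array rows a fit with a row term within each slide. Correlations were tested by exact permutation in Python 3.11.15 with scipy 1.17.1. Between 46.25% and 53.91% of an array's spots had Cy5 well above background, no spot was saturated, and precision is limited by how many arrays there are. The fit was tested on simulated data with independent noise for each gene. The simulation held no shift between slides, array rows or reference signals, so it cannot show how the fit handles those.

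The members and gene lists were chosen with earlier results of these data known. Values on every array were to be given for Ppara, Cpt1a and members called in both the ratio and Cy5 alone. No member was, so Decr1 and Pxmp4 were added after their values were seen, as were the Hadha, Etfa and Ppara pairings. Every other member is given by its differences. From each other list, up to 3 called genes with the smallest p in a comparison were named, and Acad9, Fgf21 and second values of named genes were added after their values were seen. Alternatives were each channel alone, the scanner's and the deposited ratios, no background subtraction, median centring, scaling between arrays, other filters, the mean of a gene's probes, row and replicate blocks, the compared groups only, and leaving out arrays. Some genes of these lists are not reported here.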

Additional observations from a re-analysis of the deposited data

Results flagged for a closer look

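Among the 124 groups of 4 log2 ratios (31 members in 4 groups), 7 (5.65%) held an array whose gap to the nearest of the others exceeded Dixon's limit for 4 values, and chance gives about 1 in 20 groups. Fabp1 was low on CC 1, at 7.97, with the reference signal described above, and on C 11, at 9.41 against 9.55 to 9.56. Hadh was low on CC 1, at 3.33, and high on MM 3, at 3.46. Ppara was low on CC 4, at 1.55 against 1.72 to 1.74. Acsl1 was high on CC 2, at 5.32, and Cpt2 high on C 9, at 3.34. Array CC 1 held 2 of the 7.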

How the results depend on the processing

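Members called in M against C numbered 8, and 0 in Cy5 alone, 5 with median centring and 5 with no filter on dim probes. Leaving out single arrays gave 1 to 10: 1 without C 9, 4 without C 10, C 11 or M 7, and 5 without C 12, M 5, M 6 or M 8. In MM against CC the 3 became 0 in Cy5 alone, 8 with the scanner software's log ratio, 10 with median centring, and 5 with the array row as a block, also with the row taken within each slide, a setting added after the data were seen. Leaving out single arrays gave 2 to 7: 7 without CC 1 and 5 without MM 3. Between the array rows of slide 2 the 4 became 7 in Cy5 alone and 0 with the scanner's log ratio. Leaving out single arrays gave 1 to 6: 1 without M 5 or MM 1, and 2 without M 6, M 7, M 8 or MM 3. The causes were not tested. The other settings named under processing kept these counts within 1.5 times where they were run, apart from Cy3 alone. In Cy3 alone limma called 19, 19 and 0 members in the same order. The array rows were refitted only in each channel alone, with the scanner's and the deposited ratios, with scaling between arrays and with arrays left out. CC against C, MM against M, the interaction and the rows of slide 1 stayed at 0 without any single array. No named value changed direction while called. Decr1 kept its call in 28 of 29 alternatives in M against C and 29 of 30 in MM against CC, all except Cy5 alone, and Etfa in 12 of 29. CC and MM share replicate numbers 1 to 4, and the labels do not say that a number marks a pair. Same-numbered arrays had correlated deviations of 0.339, 0.057, 0.185 and 0.105, and 2 of 4 correlated best with their own number. With the number as a replicate block MM against CC called 3 members, Acaa1a, Decr1 and Eci1. Signals near background limit Ppara and the reference channel of Ehhadh, and left Acot1 and Pdk4 without a test.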
